A study of Mus musculus with 12 samples.

Results

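The genes described here encode the proteins of the cytosolic ribosome. They were taken by symbol, as the Rpl and Rps genes with a number, Rplp0, Rplp1, Rplp2 and Rpsa. Of 88 such symbols in the gene list, 85 had a mean of at least 0.5 TPM (a gene's share of all transcripts after correction for gene length, scaled to a total of 1000000), out of 12526 genes at that level and 33641 genes listed. The 85 genes were 49 of the large (60S) and 36 of the small (40S) subunit. The annotation gives 81 of them as protein coding and 4 as pseudogenes, Rps12l1, Rps3a2, Rps3a3 and Rps4l, and these 4 were kept because the symbol rule takes them. The 3 symbols that did not reach the mean were the testis-type paralogs Rpl10l, listed at 0 in all 12 samples, and Rpl39l, with a mean of 0.119 TPM, and the Rpl6 paralog Rpl6l, with a mean of 0.0437 TPM.

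Messenger RNA had been sequenced from the left ventricle (LV) and right ventricle (RV) of male mice aged 12 to 14 weeks, with 3 samples for each ventricle and genotype. All of the mice carried a human phospholamban coding sequence knocked into exon 2 of the mouse gene, so the controls were also humanized. In WT-PLN mice it was the wild-type sequence, and R14del-PLN mice were heterozygous for the deletion of arginine 14, given as KO in the sample titles. The strain is labelled C57BL/6J, while chimeric founders of mixed 129/Sv-CP and C57Bl/6J origin were crossed with Sox2-Cre mice, which gave a line of hybrid background. Whole ventricle was used, so that a level per cell and the number of cells of a type cannot be told apart. The 7 cardiomyocyte markers checked (Myh6 and Tnnt2 among them) summed to between 32190 and 49100 TPM in every sample. The numbers of the samples are those in their titles, and nothing says which samples came from separate mice, so a p-value measures only the spread between these samples.

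A ribosome holds a single copy of nearly every one of its proteins, and the genes are therefore known for levels that lie close together and move together. Their messages start with a tract of pyrimidines at the 5′ end, through which growth signalling by mTORC1 sets how much of them is translated. The mouse genome also holds many processed copies of them, made from reverse-transcribed messages and usually without introns, whose sequences differ from the parent gene at few or no bases. Reads from such copies cannot always be assigned to the right gene. For that reason the sum of a gene and its near-identical copies was used beside the gene alone, and a value below is that of the gene alone unless a sum is named. Near-identical copies are genes whose transcript aligned over 80% or more of the shorter of the pair with an identity of 95% or higher.

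Rpl34 of the large subunit had the smallest adjusted p of the 85 genes between genotypes in both ventricles. It is shown with its processed copy Rpl34-ps1 because the values of the pair exchanged places. Rpl34 has 5 exons on the minus strand of chr3:130726831-130730398 (GRCm38), and Rpl34-ps1 is a single exon on the plus strand of chr6:71124610-71124963, outside any other annotated gene. Over the 354 coding bases, counted from 1 at the A of the start codon, the annotated sequences differ by T132C and C318G only. T132C lies in exon 3 of Rpl34 at base 130729084 and C318G in exon 5 at base 130726911. The 41 bases around each difference are printed 5′ to 3′ on the coding strand, with the differing base in capitals.
Rpl34, coding bases 112 to 152: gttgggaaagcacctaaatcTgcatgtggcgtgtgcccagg
Rpl34-ps1, the same bases: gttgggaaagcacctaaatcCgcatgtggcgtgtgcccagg
Rpl34, coding bases 298 to 338: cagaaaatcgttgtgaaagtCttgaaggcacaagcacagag
Rpl34-ps1, the same bases: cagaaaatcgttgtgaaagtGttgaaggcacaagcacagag

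Rpl34 was at 247, 241 and 255 TPM in the LV and at 214, 192 and 194 TPM in the RV of WT-PLN mice. R14del-PLN mice had 31.8, 28.7 and 32.8 TPM in the LV and 22.9, 26.1 and 18.1 TPM in the RV. Every R14del-PLN sample was thus far below every WT-PLN sample. Rpl34 fell by 2.96 ± 0.13 in the LV and by 3.12 ± 0.13 in the RV on the log2(TPM + 1) scale (log2 fold change ± SE), with adjusted p of 3.74e-08 and 1.89e-08 in limma, a linear model fitted over all 12526 genes with Benjamini-Hochberg adjustment. Rpl34-ps1 ran the other way. It was at 0 to 0.5 TPM in the 6 WT-PLN samples, at 221, 236 and 250 TPM in the R14del-PLN LV and at 236, 143 and 185 TPM in the R14del-PLN RV. The sum of the gene and its copies was 247, 241 and 256 TPM in the WT-PLN LV against 254, 267 and 285 TPM in the R14del-PLN LV. In the RV the sum was 214, 192 and 194 TPM against 262, 169 and 204 TPM. The sums of the genotypes overlapped in both ventricles, and fitted in place of the single gene they differed by 0.11 in the LV (adjusted p = 0.869) and by 0.06 in the RV (adjusted p = 1.00). Which gene of the pair the reads came from was not tested.

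Rpl34 was the only gene of the 85 called in either genotype comparison, where a call required an adjusted p of at most 0.05 and a change of at least 1.5-fold. The call rate over all genes tested was 0.519% in the LV (65 of 12526) and 0.271% in the RV (34 of 12526). After each gene was summed with its copies, no ribosomal protein gene was called in the LV or in the RV, against 0.511% and 0.263% of all genes, and without that step 7 and 11 of the 85 had an unadjusted p of at most 0.05, where 9.6% and 6.22% of all genes did. No gene of the 85 was called between RV and LV in WT-PLN or in R14del-PLN mice, nor in the interaction of genotype and ventricle, and the call rate over all genes was 0% in each of these 3 tests. At an unadjusted p of at most 0.05, 27 of the 85 genes differed between the ventricles in WT-PLN mice, 37 in R14del-PLN mice and 1 in the interaction. The rates over all genes at this threshold were 14.5%, 6.57% and 1.01%.

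**Figure D1:**
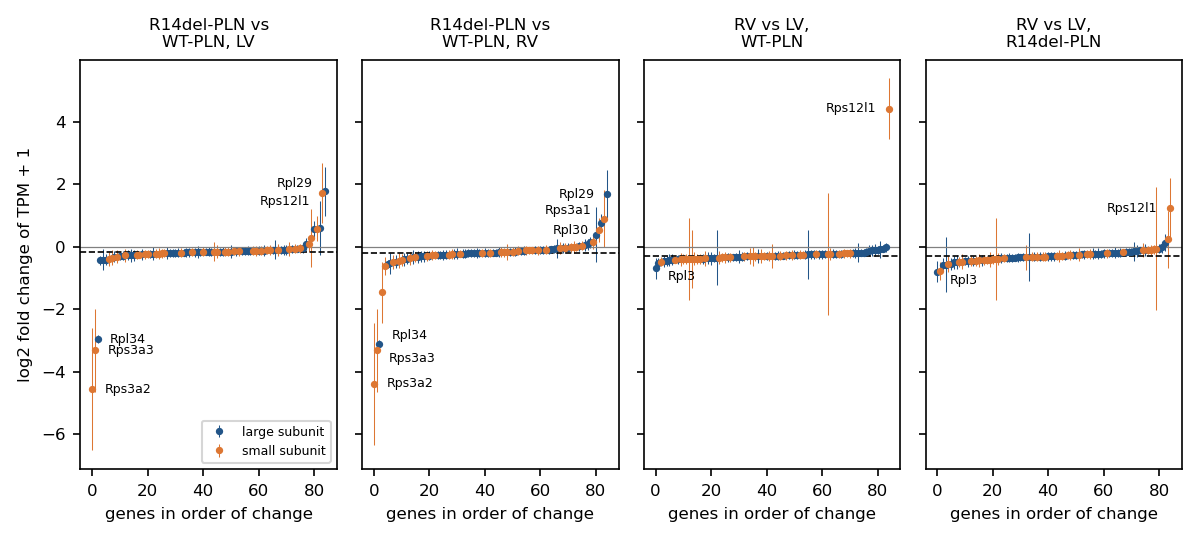
Log2 fold change of TPM + 1 for each of the 85 ribosomal protein genes (points, with the standard error as a bar) in 4 comparisons, ordered by size along the horizontal axis, with the median of the genes as a dashed line. Nearly all genes lie in a narrow band below 0, and the few that leave it, such as Rpl34, Rps3a2, Rpl29 and Rps12l1, have near-identical copies.

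The summed level of the family was lower in the RV than in the LV of WT-PLN mice. The 85 genes summed to 20784, 20363 and 21926 TPM in the LV and to 18110, 16598 and 17314 TPM in the RV of WT-PLN mice. In R14del-PLN mice they summed to 16777, 17599 and 22098 TPM in the LV and to 17689, 14398 and 14267 TPM in the RV. In WT-PLN mice the ventricles did not overlap, with means of 21024 ± 808 TPM in the LV and 17341 ± 757 TPM in the RV (SD, n = 3 each), a difference of -17.5%. In R14del-PLN mice the means were 18824 ± 2864 and 15452 ± 1939 TPM (SD, n = 3 each), and the ventricles overlapped. Between the genotypes the mean sum of R14del-PLN mice differed from that of WT-PLN mice by -10.5% in the LV and by -10.9% in the RV, and the ranges overlapped in both. No test was made on these sums.

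TPM values add up to the same total in every sample, so that a class of abundant transcripts moves all others. The transcripts encoded by mitochondrial DNA took up between 37.3% and 54.5% of the total. Their share was at most 47.3% in the LV and at least 48.7% in the RV of WT-PLN mice, and it was lowest in the R14del-PLN LV sample 3, at 37.3%. With these transcripts left out of the total, the family summed to 38949, 38644 and 39183 in the WT-PLN LV and to 38327, 34038 and 33740 in the WT-PLN RV, per 1000000 of the remaining transcripts. The difference of the RV from the LV was then -9.14%, and the samples numbered 1 lay close together. In R14del-PLN mice the sums became 34383, 35464 and 35239 in the LV and 36410, 29446 and 31388 in the RV. On this scale the R14del-PLN LV lay below the WT-PLN LV without overlap, with a difference of -10.01%, and the RV of the genotypes overlapped with a difference of -8.35%.

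**Figure D2:**
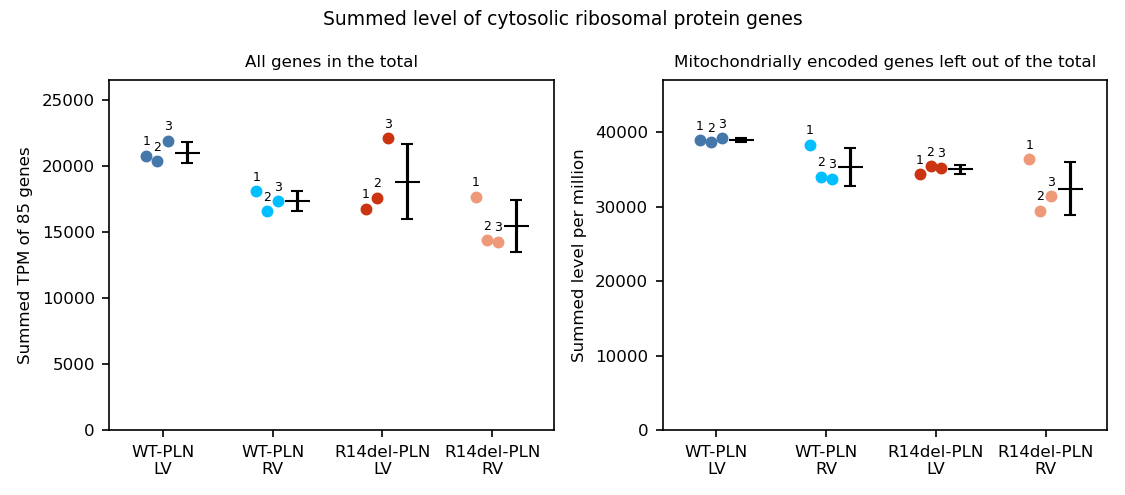
Summed level of the 85 genes in each sample (numbered points) with the group mean and SD (bars), in TPM on the left and per 1000000 after removal of mitochondrially encoded transcripts on the right. The 3 WT-PLN LV samples lie close together at 38644 to 39183 on the right, above the 3 R14del-PLN LV samples at 34383 to 35464.

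Gene by gene, the shift was small and went the same way in most of the family. Between RV and LV in WT-PLN mice, 84 of the 85 genes were lower in the RV, with a median log2 fold change of -0.30 against -0.17 over all 12526 genes. Of the 12526, 10760 were lower in the RV. In 64 of the 85 the 3 RV samples all lay below the 3 LV samples, where 25.2% of all genes did so. Such separation was also found in related lists described below. It held for 52 of 78 mitochondrial ribosomal protein genes and for 13 of 19 translation factors and other genes with a pyrimidine tract. It held for 16 of 47 genes of ribosome assembly and 4 of 19 of mTORC1 signalling. In R14del-PLN mice 82 of the 85 and 8809 of the 12526 were lower in the RV, with a median of -0.30 against -0.08 over all genes. The ranges separated in 8 of the 85 only, where the rate over all genes was 8.72%. In the related lists, in the order above, they separated in 29, 2, 4 and 2 genes. R14del-PLN samples were lower than WT-PLN samples for 77 of the 85 genes in the LV and for 8975 of the 12526. The medians were -0.16 and -0.09. In the RV the R14del-PLN samples were lower for 73 of the 85 and for 6380 of the 12526, with medians of -0.19 and 0.00. The ranges of the genotypes separated downwards in 16 genes in the LV and in 7 in the RV, and the rates over all genes were 8.47% and 5.79%. The genotype comparisons and the ventricle comparisons share groups of samples, so that their medians are not independent of each other. Quantile normalization and upper quartile scaling moved the median of all genes close to 0. Relative to it the median of the ribosomal protein genes between the WT-PLN ventricles was -0.10 under both, where the deposited values gave -0.13. Between genotypes in the LV their median was -0.06 and -0.04 under these scalings, against -0.16 as deposited. Relative to all genes it was -0.08 and -0.05, against -0.07. In the RV the median between genotypes was -0.12 and -0.17, against -0.19. Relative to all genes it was -0.13 and -0.18, against -0.19. The 3 lowest changes between these ventricles were those of Rpl3 at -0.69 ± 0.34, Rpl10a at -0.53 ± 0.18 and Rps27l at -0.48 ± 0.14 (log2 fold change ± SE), and in R14del-PLN mice those of Rpl3 at -0.81 ± 0.34, Rps12 at -0.78 ± 0.30 and Rpl37a at -0.58 ± 0.20. None of the 6 passed the limma test, with adjusted p between 0.231 and 0.745. Most of these changes were smaller when the copies were added. Rpl3 then changed by -0.38 and Rpl10a by -0.27 between the WT-PLN ventricles, and Rps27l has no copy. Between the R14del-PLN ventricles the sums changed by -0.28 for Rpl3, -0.34 for Rps12 and -0.31 for Rpl37a. In the WT-PLN samples paired by number, a fit described below with Rps12l1, the adjusted p of the genes alone were 0.0274 for Rpl3, 0.0488 for Rpl10a and 0.0274 for Rps27l, and of these only Rpl3 reached the 1.5-fold change.

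The red cell markers moved in the same direction as the family. The 5 genes (4 globin genes and Alas2, which makes heme precursors) summed to 2087 to 2316 TPM in the LV and 1461 to 1736 TPM in the RV of WT-PLN mice, and to 1093 to 2142 and 956 to 1368 TPM in R14del-PLN mice. All 5 had a negative log2 fold change in each of the 4 comparisons, and none was called. Markers of other cells were also lower in some of the comparisons, and none of them was called. The 6 fibroblast markers were all below 0 in both genotype comparisons, with medians of -0.36 in the LV and -0.13 in the RV, and 5 of the 6 were below 0 between the WT-PLN ventricles (median of -0.29). In WT-PLN mice they summed to 301 to 530 TPM in the LV and 315 to 415 TPM in the RV, and in R14del-PLN mice to 245 to 383 and 287 to 393 TPM. The 5 smooth muscle and pericyte markers were all lower in the RV of WT-PLN mice (median of -0.51), and had medians of -0.34 in the LV and 0.15 in the RV between genotypes. The 5 endothelial markers were all lower in the RV in both genotypes, with medians of -0.43 in WT-PLN and -0.26 in R14del-PLN mice, and between genotypes their medians were 0.06 and 0.19. The 5 macrophage markers had medians between -0.17 and -0.03 in the 4 comparisons. The 4 atrial markers (Myl7, Sln, Nppa and Myl4) summed to between 45.6 and 1296 TPM, and the sums overlapped between all groups. The paper reports lower Sln in the LV of the mutant only, for RNA and for protein. Whether these transcripts came from atrial tissue or from the ventricle itself was not tested. All 4 of them were lower in R14del-PLN than in WT-PLN mice in the LV, with a median of -2.62, and all 4 lower in the RV than in the LV of WT-PLN mice, with a median of -0.78. Between the R14del-PLN ventricles 3 of the 4 were higher in the RV without overlap (median of 2.26), and the median between genotypes in the RV was 0.07. The part of these cells in the family's shift was not tested.

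The deposited data of the R14del-PLN RV sample 3 carry another run label than those of the other 11 samples. Whether the label stands for sequencing or for processing is not stated. Without this sample the mean log2 ratio of the family's sum between genotypes in the RV was -0.11 in place of -0.17. The R14del-PLN LV sample 3 and RV sample 2 differed from the rest in how the family was divided between genes and copies, as given below. Single R14del-PLN samples moved the median between genotypes in either direction. Without one of the LV samples 1, 2 and 3 it was -0.09, -0.13 and -0.29 in the LV, and without one of the RV samples 1, 2 and 3 it was -0.30, -0.11 and -0.14 in the RV. When the LV sample 3 and the RV sample 2 were both left out, the median change between genotypes was -0.29 in the LV and -0.11 in the RV, and the median between ventricles in R14del-PLN mice became -0.11 in place of -0.30.

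The large and the small subunit moved together. The ratio of the summed TPM of the 49 large to that of the 36 small subunit genes was 1.126, 1.149 and 1.174 in the LV and 1.171, 1.177 and 1.180 in the RV of WT-PLN mice. In R14del-PLN mice it was 1.166, 1.138 and 1.098 in the LV and 1.154, 1.072 and 1.170 in the RV. The lowest ratios belonged to the LV sample 3 and the RV sample 2. The genotypes did not overlap in the RV, with means of 1.13 ± 0.0522 and 1.18 ± 0.00469 (SD, n = 3 each), and they overlapped in the LV. With copies counted in, the ratio lay between 1.23 and 1.30 in all samples, and the RV of the genotypes again did not overlap. The median log2 fold change of the large and small subunit genes was -0.16 and -0.16 in the LV and -0.20 and -0.17 in the RV between genotypes. Between the ventricles it was -0.26 and -0.31 in WT-PLN mice and -0.29 and -0.31 in R14del-PLN mice.

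Most of the genes lay at similar levels, as parts of a single particle. The median of the 85 means was 204 TPM, and 62 of the 85 lay between 100 and 500 TPM. Rps29, a small zinc-binding protein of the 40S subunit, was highest at 716 TPM on average, followed by Rplp1 at 637, Rps24 at 613 and Rpl13a at 525 TPM. In this order of means, the samples of neighbouring genes overlapped in all 4 groups for 47 of the 84 adjacent pairs, and separated in all 4 groups for 3 pairs. The order of the 4 highest was separated in 2 of the 4 groups at each step.

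For most of the lowest genes the near-identical copies held the larger part of the values. The 5 lowest were Rpl12 at 4.14 TPM, Rpl5 at 6.73, Rps4l at 9.09, Rpl27 at 9.14 and Rps12l1 at 9.64 TPM. Rpl5, which binds the 5S RNA together with Rpl11, differs at 0 of 894 coding bases from Gm15500, a copy with a mean of 269.7 TPM. Rpl12 differs at 0 of the 495 coding bases compared from Gm10275, which was at 255 TPM. Rpl27 shared its family with Gm11518 at 123 TPM and Rpl27-ps3 at 132 TPM, and Rps12 (9.91 TPM) with Rps12-ps3 at 314.7 TPM. Summed with their copies, Rpl5 came to 276 TPM, Rpl12 to 264, Rpl27 to 264 and Rps12 to 335 TPM, which is inside the range of the other genes. Rps4l has no such copy above 0 TPM. Rpl10, a late-joining 60S protein, was divided less unevenly, at 147 TPM beside 210.4 TPM of Rpl10-ps3. The value of a single gene in such a pair is uncertain.

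**Figure D3:**
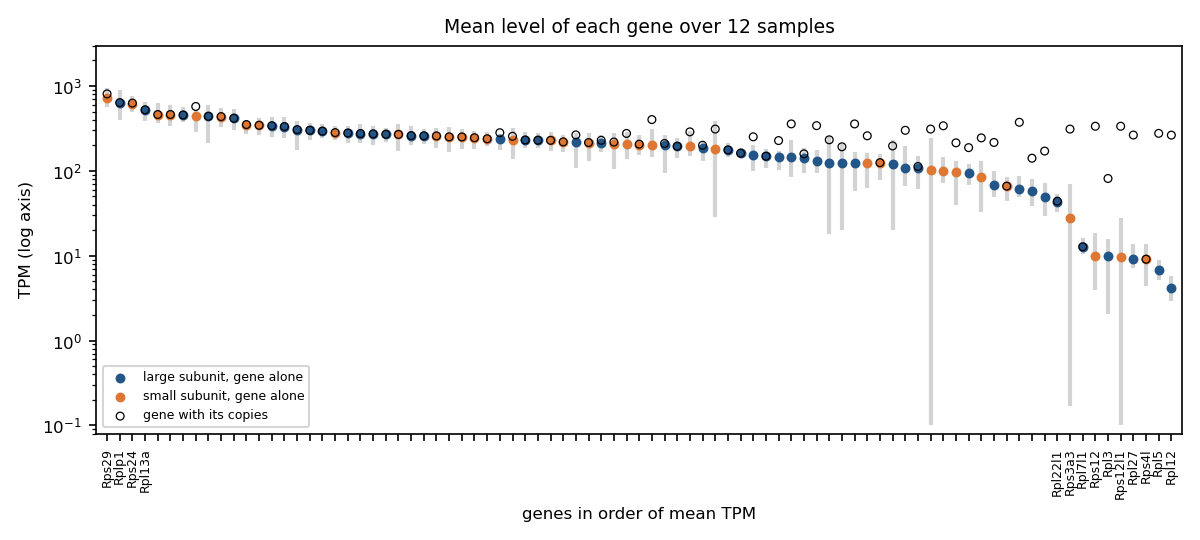
Mean TPM over 12 samples of each of the 85 genes alone (filled) and summed with its near-identical copies (open circles), with the lowest to highest sample as a grey line, on a log axis where values under 0.1 are drawn at 0.1; the 4 highest and 10 lowest genes are named. Of the 10 lowest, those other than Rpl22l1, Rpl7l1, Rps4l and, in part, Rpl3 rise to the level of the rest once copies are added.

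Members that are paralogs of each other lay at unequal levels. Rpl3l, the striated-muscle form of Rpl3, was at 168, 164 and 178 TPM in the LV and 172, 154 and 160 TPM in the RV of WT-PLN mice, and at 149, 157 and 184 TPM and 145, 166 and 141 TPM in R14del-PLN mice. These ranges overlapped between all groups. Rpl3, which forms part of the peptidyl transferase centre, had a mean of 9.87 TPM alone and of 81.3 TPM with its copy Rpl3-ps1. Rpl3l thus exceeded Rpl3 with or without that copy in each of the 12 samples. Rpl22 averaged 149 TPM against 43.3 TPM for Rpl22l1, Rps27 460 TPM against 66.0 TPM for Rps27l, and Rpl7 231 TPM against 12.8 TPM for Rpl7l1, a protein that is known from the nucleolus. Rps4x averaged 251 TPM and the annotated pseudogene Rps4l 9.09 TPM. Rps27l was at 83.9, 76.3 and 81.0 TPM in the LV against 59.6, 54.9 and 57.0 TPM in the RV of WT-PLN mice, a log2 fold change of -0.48 ± 0.14 (SE) that did not pass the limma test (adjusted p = 0.231).

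Of the proteins of the stalk that binds elongation factors, Rplp1 had the lowest change between genotypes. It was at 730, 794 and 892 TPM in the LV and at 647, 720 and 670 TPM in the RV of WT-PLN mice. R14del-PLN mice had 516, 649 and 622 TPM in the LV and 533, 470 and 399 TPM in the RV. The R14del-PLN samples lay below the WT-PLN samples in both ventricles without overlap. The log2 fold change was -0.44 ± 0.14 in the LV (SE, adjusted p = 0.264) and -0.55 ± 0.14 in the RV (SE, adjusted p = 0.165, limma), so that neither passed the test. Rplp2, its partner in the stalk, had means of 351 ± 28.3 TPM in the LV and 324 ± 19.3 TPM in the RV of WT-PLN mice, and of 291 ± 10.4 and 256 ± 71.9 TPM in R14del-PLN mice (SD, n = 3 each). Rplp0, which anchors the stalk, varied too much between samples to compare, as given with its copies.

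Further members with known roles followed the family. Rps6, the protein that S6 kinase phosphorylates, averaged 221 ± 20.8 TPM in the WT-PLN LV, 174 ± 8.39 TPM in the WT-PLN RV, 213 ± 70.0 TPM in the R14del-PLN LV and 169 ± 23.1 TPM in the R14del-PLN RV (SD, n = 3 each). Rps19, needed for 40S assembly and mutated in Diamond-Blackfan anaemia, averaged 261 ± 18.6, 199 ± 14.7, 209 ± 12.1 and 161 ± 58.2 TPM in the same order. Rpsa, also known as the laminin receptor, averaged 317 ± 21.1, 273 ± 5.68, 285 ± 23.8 and 252 ± 22.5 TPM. Rps27a, made as a fusion with ubiquitin, averaged 239 ± 9.42, 189 ± 13.1, 219 ± 41.2 and 170 ± 22.1 TPM. Rpl39, at the exit of the peptide tunnel, averaged 135 ± 15.9, 101 ± 12.9, 113 ± 10.1 and 83.3 ± 22.5 TPM. Rps6 made up 67.4% of its sum with copies, which averaged 332 ± 10.3, 294 ± 8.40, 284 ± 35.03 and 242 ± 32.2 TPM in that order (SD, n = 3 each). The copies of the other 4 averaged at most 11.0 TPM. Those of Rps19 lay mostly in the R14del-PLN samples numbered 3. Its sum with copies averaged 263 ± 19.7, 201 ± 14.9, 230 ± 25.5 and 180 ± 63.4 TPM in the same order (SD, n = 3 each). In these 5 genes the mean was lower in the RV in both genotypes, and none passed the test in any comparison.

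A gene was taken to leave the common pattern where its change lay more than 1.5-fold from the median of the family and its share of the family's sum did not overlap between the groups. By this description, with no test of its own, Rpl34 left it in both genotype comparisons, Rpl30 in the RV between genotypes, and Rps12l1 between the ventricles of WT-PLN mice. All 3 have near-identical copies, as do 74 of the 85 genes. The 74 have at least 1 copy above 0 TPM, 40 have copies that sum to 10 TPM or more, and for 21 the copies held more than the gene itself.

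Rpl30, a 60S protein that binds its own message in yeast, was at 85.2, 81.5 and 83.9 TPM in the LV and 81.6, 75.3 and 80.5 TPM in the RV of WT-PLN mice. In R14del-PLN mice it was at 144, 66.8 and 198 TPM in the LV and 155, 121 and 134 TPM in the RV. The genotypes separated in the RV and overlapped in the LV through the R14del-PLN sample 2. The log2 fold change in the RV was 0.77 ± 0.28 (SE, adjusted p = 0.552, limma). Its copy Gm12191, a single exon in an intron of Cnot6 on chr11:49678710-49679057, was at 214 to 267 TPM in WT-PLN samples. In R14del-PLN mice Gm12191 was at 126, 216 and 142 TPM in the LV and 139.5, 124 and 103 TPM in the RV. The samples in which Rpl30 was high were those in which Gm12191 was low. Summed with its copies, Rpl30 changed by -0.21 in the RV (adjusted p = 0.934). Over 348 coding bases the annotated pair differs by G96A alone, shown because this base is all that separates them in the coding sequence.
Rpl30, coding bases 76 to 116: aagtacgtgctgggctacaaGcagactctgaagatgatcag
Gm12191, the same bases: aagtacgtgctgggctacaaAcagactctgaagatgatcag

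Rpl29, a heparin-binding 60S protein, divided the WT-PLN mice among themselves. It was at 202, 26.6 and 28.6 TPM in the LV and at 191, 23.3 and 20.3 TPM in the RV, so that the samples numbered 2 and 3 were low in both ventricles. Samples from R14del-PLN mice had 171, 185 and 206 TPM in the LV and 175, 123 and 151 TPM in the RV. Its copies Gm8210 (chr1:43189156-43189638, in an intron of Fhl2 on the other strand) and Gm13841 (chr5:115801677-115802159) had equal values, at 100 and 109 TPM each in the WT-PLN LV samples 2 and 3 and at 85.1 and 84.0 TPM each in the RV samples 2 and 3. In the other 8 samples each was at most at 0.4 TPM. The change between genotypes was 1.77 ± 0.78 in the LV (SE, adjusted p = 0.485) and 1.69 ± 0.78 in the RV (SE, adjusted p = 0.801). The WT-PLN samples numbered 1, at 202 and 191 TPM, were those in which Rpl29 was high. With both left out, Rpl29 was called in both ventricles, at 2.72 in the LV and 2.71 in the RV with limma. This call follows from which samples were left out. The same fit called 231 of all genes tested in the LV and 88 in the RV, against 65 and 34 with all samples. With all samples, Rpl29 summed with its copies changed by -0.25 and -0.35. Gm8210 and Gm13841 both differ from Rpl29 by C72A, C300T and T423C, so that the annotated copies are alike over the coding sequence, and the bases around the first difference are printed to show this.
Rpl29, coding bases 52 to 92: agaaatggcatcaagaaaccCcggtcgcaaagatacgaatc
Gm8210 and Gm13841, the same bases: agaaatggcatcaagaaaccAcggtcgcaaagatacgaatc

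Rps3a1 (chr3:86137940-86142702), which lies near the mRNA exit of the 40S subunit, has Rps3a2 (chr14:88123017-88123808) and Rps3a3 (chr13:108670603-108671397) as near-identical copies. Rps3a1 was at 215, 44.0 and 212 TPM in the LV and 171, 28.4 and 182 TPM in the RV of WT-PLN mice, and at 269, 34.5 and 382 TPM and 287, 84.9 and 242 TPM in R14del-PLN mice. The samples numbered 2 were the lowest of their group in all 4 groups. Rps3a2 was at 105, 245 and 119 TPM and 99.6, 199 and 93.3 TPM in WT-PLN mice, and at 0.0, 203 and 0.2 TPM and 0.2, 173 and 0.0 TPM in R14del-PLN mice. Rps3a3 was at 36.1, 69.6 and 36.7 TPM and 29.1, 47.1 and 28.9 TPM in WT-PLN mice and at 55.9 and 28.0 TPM in the R14del-PLN samples numbered 2, with the other 4 at most at 0.3 TPM. The fitted changes between genotypes were -4.57 ± 1.96 in the LV and -4.39 ± 1.96 in the RV for Rps3a2 (SE), the lowest of the family, with adjusted p of 0.468 and 0.784. For Rps3a3 they were -3.32 ± 1.32 in both ventricles (SE), with adjusted p of 0.424 and 0.673. The sum of the Rps3a family was 357, 359 and 369 TPM in the WT-PLN LV and 300.4, 275 and 305 TPM in the WT-PLN RV. In R14del-PLN mice the sum was 269.9, 294 and 382.5 TPM in the LV and 287, 287 and 243 TPM in the RV.

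Rps12l1 (chr7:56014016-56014414), a processed copy of Rps12 of the 40S subunit, had the 1 positive change between RV and LV of WT-PLN mice. It was listed at 0 in the LV sample 1, at 4.19e-07 TPM in the LV sample 2 and at 0.018 TPM in the LV sample 3, against 18.3, 23.9 and 19.7 TPM in the RV. In R14del-PLN mice it was at 6.7, 3.8 and 0.0 TPM in the LV and 15.7, 0.0 and 27.6 TPM in the RV. It did not pass the limma test over 12 samples (adjusted p = 0.182), and no fold is given against a group listed near 0. WT-PLN samples of the 2 ventricles that share a number deviated from their group means together, and with the replicate number as a block 2 genes of the 85 were called between the ventricles, Rps12l1 and Rpl3 (log2 fold change of -0.69, adjusted p = 0.0274), where 1.85% of all genes were (232 of 12526). The pairs were chosen from these same data, so these calls are not independent of that choice. In R14del-PLN mice, where the numbers were not taken as pairs, the same block gave 1 called gene, Rps12l1, against 0.798% of all genes. With Rps12 and Rps12-ps3 added, the family was at 380, 394 and 428 TPM in the LV and 342, 326 and 317 TPM in the RV of WT-PLN mice, lower in the RV like the rest. With its copies added, the change of Rpl3 was below 1.5-fold. Rpl3 alone had been at 14.0, 12.7 and 15.8 TPM in the LV and 8.0, 8.8 and 8.4 TPM in the RV.

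**Figure D4:**
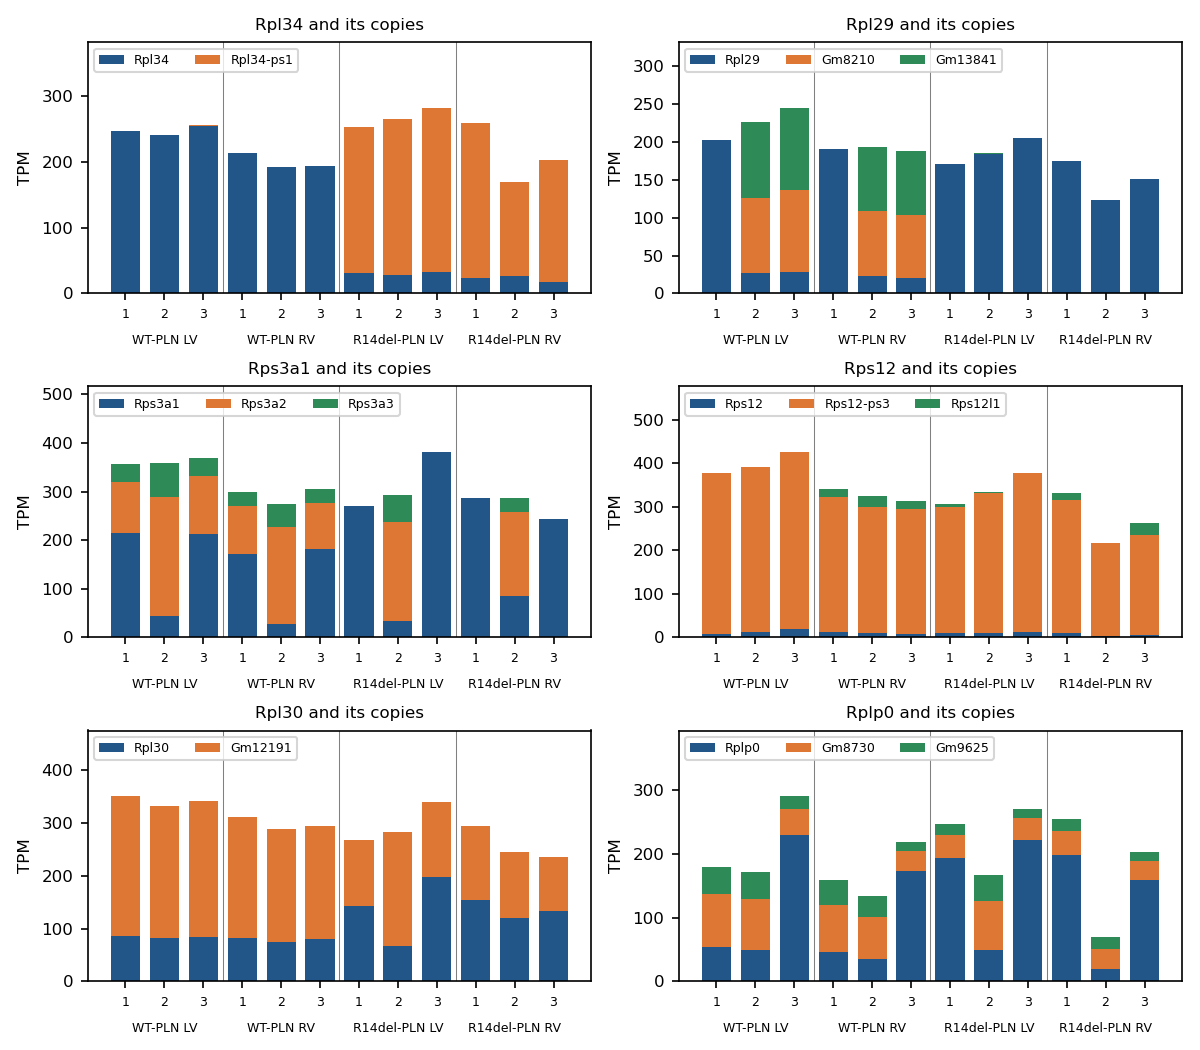
TPM of 6 genes and their near-identical copies, stacked, in each of the 12 samples (numbered within group and ventricle). For Rpl34, Rpl29, Rps3a1 and Rpl30 the height of the stack varies less than its division. Rpl34-ps1 holds most of its family in the R14del-PLN samples only, and Gm8210 and Gm13841 in the WT-PLN samples 2 and 3 only. Rps12-ps3 holds most of its family in every sample, and the sum of that family ranges from 217 to 428 TPM. Rplp0 is the family whose stack varies most.

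Rplp0 was the exception to the even sums. It was at 54.0, 49.1 and 229 TPM in the LV and 45.8, 35.8 and 173 TPM in the RV of WT-PLN mice, and at 194, 49.8 and 222 TPM and 199, 20.2 and 158 TPM in R14del-PLN mice. With its copies it still ranged from 70.0 TPM in the R14del-PLN RV sample 2 to 291 TPM in the WT-PLN LV sample 3. The pooled SD within groups was 1.37 on the log2 scale for the gene and 0.595 for the sum, the largest of all sums.

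Between replicates within groups, most genes with the widest spread varied less once summed with their copies. For 8 genes the SD of log2(TPM + 1) was above 0.5, namely Rps3a2 at 3.07, Rps3a3 at 2.07, Rps12l1 at 1.51, Rps3a1 at 1.44, Rplp0 at 1.37, Rpl29 at 1.22, Rps7 at 0.61 and Rpl3 at 0.51. Summed with copies, 7 of these 8 came under 0.5, with Rplp0 as the exception. The 7 are not separate results, because Rps3a1, Rps3a2 and Rps3a3 share the same sum, with an SD of 0.15. Rps12l1 made up only 2.88% of its sum, so the spread of that sum says little about it. The 8 genes were also chosen by their spread in these same data. Over the 85 genes the median SD was 0.18 alone and 0.17 with copies, so that this drop did not extend to the whole list. For some genes the sum had the wider spread, as for Rpl35 (0.15 alone, 0.26 with copies) and Rpl21 (0.21 and 0.31). Rps7, picked out here after its values were seen, has a near-identical copy, Gm6472, on the X chromosome, and its sum with all copies had an SD of 0.18.

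**Figure D5:**
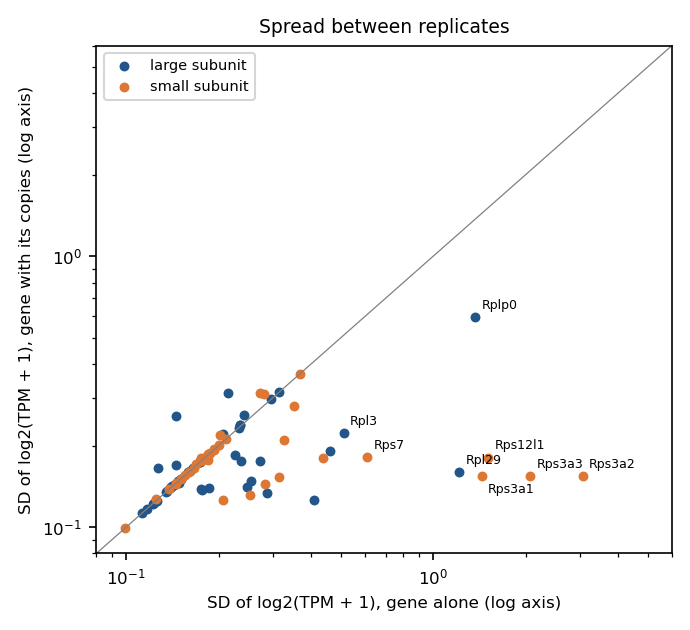
Pooled within-group SD of log2(TPM + 1) of each of the 85 genes alone (horizontal) and summed with its near-identical copies (vertical), on log axes, with the line of equality. The genes above an SD of 0.5 drop below it when summed with their copies, except Rplp0, which stays at 0.595. Rps3a1, Rps3a2 and Rps3a3 share the same sum.

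Further divisions between copies went with sample numbers or genotype, and the 2 given here were picked out after their values were seen. Gm10260 and Gm11361, copies of Rps18, were at 80.9 and 39.8 TPM in the R14del-PLN LV sample 1 and at 91.8 and 43.6 TPM in the RV sample 1, and at most at 0.3 TPM in the other 10 samples. Rps18 itself was at 139 and 144 TPM in those 2 samples, the lowest of all 12, and the family's sum of 260 and 279.5 TPM was not. Gm10288, a copy of Rpl11 that differs by G86A, was at 20.2 to 39.5 TPM in WT-PLN samples and at 0 to 2.5 TPM in R14del-PLN samples, beside 129 to 223 TPM of Rpl11 in all samples.

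In 2 R14del-PLN samples several copies were low at once, while some others were high. The near-identical copies took 17.5% of the summed TPM of genes and copies in the LV sample 3 and 16.4% in the RV sample 2, and 19.6% to 22.6% in the other 10 samples. Gm14303, a copy of Rps29, was listed at 0 in these 2 samples and at 46.2 to 253 TPM in the others. Gm10443, a copy of Rps28, was at 92.7 and 67.1 TPM against 196 to 256 TPM, and Rps6-ps4 at 29.6 and 19.1 TPM against 83.9 to 128 TPM. Some copies were instead highest in these 2 samples. Rps13-ps1, a copy of Rps13, was at 23.7 and 66.5 TPM, against at most 5.4 TPM in the others. Gm10163, a copy of Rpl21, was at 50.9 and 53.1 TPM against 13.7 to 36.5 TPM. All of these copies were picked out after their values were seen.

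The start of the messages was read from RefSeq promoters (GRCm38.p6), in which 61 of the 85 genes were found. A C at the annotated start followed by at least 4 letters that are C or T, on the coding strand, was found in 13 of the 61 (21.3%). It was found in 813 of 27025 genes with a promoter (3.01%) and in 0 of 69 mitochondrial ribosomal protein genes. Within 10 bases of the start such a run was present in 60.7% of the 61, in 34.4% of all genes and in 44.9% of the mitochondrial ribosomal protein genes. The windows with the longest runs are printed because this tract is the feature by which translation of the family is known to be set. Each shows 25 bases before the start and 15 from it, with the run in capitals.
Rpl15, chr14:18270972-18271011, minus strand: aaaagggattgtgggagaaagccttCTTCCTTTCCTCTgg
Rpl35, chr2:39005117-39005156, minus strand: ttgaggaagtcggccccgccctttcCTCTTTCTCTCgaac
Rps10, chr17:27635230-27635269, minus strand: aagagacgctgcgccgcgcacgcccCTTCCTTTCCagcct
Rps6, chr4:86857353-86857392, minus strand: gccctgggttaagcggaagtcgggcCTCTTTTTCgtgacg

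Genes that work with the ribosome gave a background to these shifts. The 19 translation factors and other genes whose messages carry the same pyrimidine tract had medians of -0.19 in the LV and -0.10 in the RV between genotypes, and of -0.25 and -0.15 between the ventricles of WT-PLN and R14del-PLN mice. The 47 genes of ribosome assembly and RNA polymerase I had medians of -0.10, 0.02, -0.19 and -0.09 in the same order, and the 19 genes of mTORC1 signalling medians of -0.09, 0.00, -0.18 and -0.09. The 78 mitochondrial ribosomal protein genes, which serve translation inside mitochondria, had medians of -0.03 and -0.03 between genotypes and of -0.22 and -0.23 between ventricles. None of the genes in these 4 lists was called in any of the 4 comparisons. Over all genes the medians were -0.09, 0.00, -0.17 and -0.08.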

How the data were processed

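The authors deposited 1 TPM value per gene and sample, from polyA stranded libraries, and the values were used as deposited. The study mapped reads to GRCm38 with CLC Genomics Workbench. The program and annotation behind the deposited TPM, and whether strand was used in counting, are not given in the sources used here. The TPM of each sample sum to 1000000, so the depth is unknown and no interval or floor for counting could be given. Groups and numbers came from the sample titles.

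Genes averaging 0.5 TPM or more were tested on log2(TPM + 1) with limma 3.58.1 in R 4.3.3, using its intensity trend (5.15 prior and 8 residual degrees of freedom), with 1 mean per group over all 12 samples and Benjamini-Hochberg adjustment over 12526 genes. A fold change is on this scale and understates that of low genes. A call took the thresholds of the study. Copies were found with BLAST 2.17.0 on GENCODE M21 transcripts. Coding sequences were read from those transcripts, and all 85 genes matched 1 gene of the annotation. On simulated data the model was also tested. Python 3.11.15, numpy 2.4.6, pandas 2.3.3, matplotlib 3.10.9 and statmod 1.5.0 were also used.

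Deviations from the group means over all genes correlated between LV and RV samples with the same number at 0.321 to 0.657 in WT-PLN mice. The WT-PLN numbers were therefore taken as pairs. In R14del-PLN mice the same numbers correlated at 0.0542 to 0.389 and were not taken as pairs. Over the ribosomal protein genes alone, samples with the same number also correlated across genotypes, which share no mouse. The means were 0.42 (LV) and 0.30 (RV), against -0.20 and -0.15 for different numbers. Between the R14del-PLN ventricles the same and different numbers gave 0.68 and -0.25. Over all genes the same numbers gave 0.076 and 0.14 across genotypes. Whether a number stands for a single mouse was not tested.

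Named genes were those called with their copies, the 3 highest and 3 lowest changes in each comparison, the 5 highest and 5 lowest levels, the 5 with the largest spread, and members fixed by role or as paralogs. The fifth highest level and the list of ribosomal proteins outside the symbol rule are not reported here. The genes, lists, alternatives and tests were chosen with earlier results of these data known. The alternatives were pseudocounts of 0.5 and 0.1, a mean of 1 TPM or no filter, upper quartile scaling, quantile normalization, totals without mitochondrially encoded genes, no intensity trend, the 6 samples compared alone, replicate blocks, samples left out, and no fold threshold. Sums with near-identical copies, the removal of 2 R14del-PLN samples and the block within 6 samples were added after the values were seen.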

Additional observations from a re-analysis of the deposited data

How the results depend on the processing

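The Rpl34 call and the absence of others held under the other pseudocounts, filters and scalings. The main fit called 65 of all genes tested in the LV and 34 in the RV. In the LV the count of called ribosomal protein genes was 0 with copies summed, where 64 of all genes were called. It was 2 without R14del-PLN LV sample 3 and RV sample 2 (Rpl34 and Rps12l1), where 96 of all genes were. It was 2 without both WT-PLN samples numbered 1 (Rpl34 and Rpl29), where 231 of all genes were. Those samples held the high WT-PLN values of Rpl29. With single samples left out it was 1 to 2, against 19 to 153 of all genes. Rpl30 was added without R14del-PLN LV sample 2. In the RV the count was 0 with copies summed, where 33 of all genes were called. It was 2 without both WT-PLN samples numbered 1, where 88 of all genes were. With single samples left out it was 1 to 2, against 14 to 48 of all genes. Between ventricles in WT-PLN mice the count was 1 in the 6 samples alone and 1 without the 2 R14del-PLN samples. It was 0 to 1 with single samples left out, and the gene was Rps12l1 each time. Of all genes, 1, 2 and 0 to 4 were called in these fits.

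With the replicate block fixed within 6 samples, 2 genes were called between ventricles in WT-PLN mice, where 1.85% of all genes were. In R14del-PLN mice, whose numbers were not taken as pairs, 1 gene was called (Rps12l1), where 0.798% of all genes were. The replicate block over 12 samples, fixed or random, changed no call of these genes, with a consensus correlation of 0.0885 for the random block.

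The summed level was lower in the RV under each scaling. Its log2 ratio in WT-PLN mice was -0.28, -0.064 with quantile normalization and -0.083 with upper quartile scaling. In R14del-PLN mice it was -0.28, -0.11 without mitochondrially encoded genes, -0.089 with quantile normalization and -0.11 without the 2 samples. Between genotypes the log2 ratio of the sum was -0.16 in the LV and -0.17 in the RV. Over the alternatives it ranged from -0.29 to -0.05 in the LV and from -0.27 to -0.09 in the RV.

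With copies summed the sign turned for Rpl34 (0.11 in LV, 0.062 in RV), Rpl29 (-0.25 and -0.35), Rpl30 (-0.21 in RV and -0.20 between R14del-PLN ventricles), Rps3a1 (-0.11 in RV and -0.20 between R14del-PLN ventricles) and Rps12l1 (-0.24 in LV, -0.29 and -0.34 between WT-PLN and R14del-PLN ventricles). Between WT-PLN ventricles Rpl3l and Rpl5 became 0.13 and 0.17 with quantile normalization, 0.13 and 0.15 with upper quartile scaling, and 0.069 and 0.11 without mitochondrially encoded genes. With single samples left out Rpl5 ranged from -0.15 to 0.062 between WT-PLN ventricles, and between R14del-PLN ventricles Rpl30 ranged from -0.31 to 0.47 and Rps3a1 from -0.82 to 0.89. The causes were not tested. With TPM alone, how depth limits these values could not be judged.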
